A study of Mus musculus with 18 samples.

Results

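The 10 immediate-early genes described here are Fos, Fosb, Jun, Junb, Atf3, Egr1, Egr2, Egr3, Nr4a1 and Ier2. They were chosen by name from the 35405 genes of the deposited table, and all 10 were measured in all 18 libraries and passed the filter on low counts, as did 20855 genes in all. Polyadenylated RNA of mouse colon was sequenced in 3 groups of 6 libraries. The labels call the groups IBC, TNBS and vector. The series title concerns isobavachalcone, a chalcone found in plants, in colitis brought on by TNBS and names the receptor GPR84, so IBC is read here as isobavachalcone. TNBS is trinitrobenzene sulfonic acid, which haptenates proteins and inflames the colon, and the vector libraries, which the deposited table names control, are the controls. The labels do not state whether IBC animals also had TNBS, the doses, the times, the strain or the age. They do not say that each library is a separate animal either, so p-values measure the spread between libraries.

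Immediate-early genes are transcribed within minutes of a stimulus, without new protein synthesis, when kinases of the MAP kinase and cyclic AMP pathways activate factors already bound at their promoters. Most encode transcription factors that switch on a later wave of genes, and their mRNAs are short-lived. In the gut they respond to growth factors, injury, microbial products and mechanical stretch, and also to the handling of tissue before it is frozen.

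No immediate-early gene passed the test of a difference between groups, given the spread between libraries. Over the 18 libraries, with group means removed, Egr1, Nr4a1, Fos, Fosb, Egr2 and Egr3 tended to vary together. Of their 15 pairs, 11 passed a permutation test, but these genes were grouped from the same correlations. Pairs of other genes were not tested beside them. Junb and Ier2 passed as a pair of their own, and Jun and Atf3 passed with none.

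Depth lay between 55.7 and 78.9 (in 1e6 counts) and averaged 67.3 ± 5.74 in IBC, 65.2 ± 3.55 in TNBS and 65.4 ± 8.51 in vector libraries (SD, n = 6 each). All 8 genes on a list of colon epithelium markers were at 1 CPM or more in every library, CPM being counts per 1e6 counts of the scaled total. Hoxb13, a homeobox gene of the hindmost gut, set apart 12 libraries with 123 to 598 CPM from 6 libraries with 0 to 1.44 CPM, which were IBC 2 and 5, TNBS 2 and 3, and vector 3 and 4. Each group thus has 4 libraries high and 2 low in Hoxb13, and values within these sets are given beside the pooled ones. Counts of mitochondrial genes took between 4.48% and 17.98% of a library, the highest share being that of vector 3.

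Promoter sequences let some of the genes that varied together be set beside Junb, which passed only with Ier2. RefSeq promoters of build GRCm38.p6, which reach from 250 bases before a transcript's start to 50 after it, were matched by symbol for 7 of the 10 genes, all but Egr1, Egr3 and Ier2. The 200 bases before the start are shown for Fos, Fosb, Egr2 and Nr4a1, which tended to vary together, and for Junb, whose correlations with them did not pass the test. Capitals mark the cyclic AMP response element half-site (TGACG, or CGTCA on the other strand), the CArG box bound by serum response factor, the EGR site (GCGNGGGCG on either strand, bound by Egr1 to Egr3) and the TATA box (TATAAA).
Fos, chr12:85473690-85473889, plus strand: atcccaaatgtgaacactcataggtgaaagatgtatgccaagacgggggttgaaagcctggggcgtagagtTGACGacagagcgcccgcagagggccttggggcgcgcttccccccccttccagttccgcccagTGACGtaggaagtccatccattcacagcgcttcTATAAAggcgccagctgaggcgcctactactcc
Fosb, chr7:19310046-19310245, minus strand: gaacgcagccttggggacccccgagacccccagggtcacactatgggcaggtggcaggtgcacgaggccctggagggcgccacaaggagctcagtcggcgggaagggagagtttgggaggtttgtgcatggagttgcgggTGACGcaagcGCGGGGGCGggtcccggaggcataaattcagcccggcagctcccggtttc
Egr2, chr10:67537669-67537868, plus strand, 1 of 5 annotated starts: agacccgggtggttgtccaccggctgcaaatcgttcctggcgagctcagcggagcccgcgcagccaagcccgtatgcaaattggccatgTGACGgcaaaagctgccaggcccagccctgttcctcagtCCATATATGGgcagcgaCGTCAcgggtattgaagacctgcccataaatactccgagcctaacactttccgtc
Nr4a1, chr15:101266646-101266845, plus strand: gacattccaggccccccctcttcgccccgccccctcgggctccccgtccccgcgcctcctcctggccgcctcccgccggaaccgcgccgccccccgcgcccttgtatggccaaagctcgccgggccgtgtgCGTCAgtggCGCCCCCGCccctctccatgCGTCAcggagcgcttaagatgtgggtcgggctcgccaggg
Junb, chr8:84978749-84978948, minus strand: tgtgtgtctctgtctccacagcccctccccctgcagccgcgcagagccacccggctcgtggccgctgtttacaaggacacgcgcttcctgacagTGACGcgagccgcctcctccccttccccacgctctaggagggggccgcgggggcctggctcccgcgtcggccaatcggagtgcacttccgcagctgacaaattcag

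The half-site stood in the promoters of 6 of the 7 matched genes (Fos, Fosb, Egr2, Nr4a1, Junb and Atf3), against 20.8% of the 32851 promoters in the table. Fos, Egr2 and Nr4a1 held it more than once in the stretch shown. Not every annotated start of Egr2 held it, and the start shown is among those that did. Jun, the 1 matched gene without it, passed with no other gene in the correlations and is not shown. A CArG box was found for 1 of 7 genes, Egr2, against 1.63% of all promoters. For every site a gene was counted if any of its promoters matched, and Egr2 has several. The shares are per promoter, so the counts of genes are not strictly comparable with them. Sites farther than 250 bases before a start were not searched, so a gene without a match may hold the site there. An EGR site was found for 2 of 7, Fosb and, on the minus strand, Nr4a1, against 5.55% of all promoters. The full cyclic AMP response element TGACGTCA, which contains the half-site on both strands, and the AP-1 site TGANTCA were in none of the 7, against 1.79% and 7.81% of all promoters. TATAAA was found for 2 of 7, Fos and, at the annotated start itself, Junb, against 13.6% of all promoters. The half-site is therefore present in Junb as well as in Fos, Fosb, Egr2 and Nr4a1, and these are matches of letters only. Egr1 and Egr3, which varied together with those 4 genes, had no matched promoter.

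Per unit of transcript length the genes spanned a wide range. On the scale of the deposited FPKM (fragments per kilobase of gene model and 1e6 fragments), the median level over the 18 libraries was 48.9 for Ier2, 46.7 for Junb, 21.0 for Fos and 17.9 for Jun. It was 7.01 for Atf3, 6.31 for Nr4a1, 3.89 for Egr1, 0.443 for Fosb, 0.316 for Egr3 and 0.253 for Egr2. Several neighbours in this order were not separated: the higher of the pair was higher in 13 of 18 libraries for Ier2 over Junb, 12 for Fos over Jun, 11 for Atf3 over Nr4a1, 13 for Fosb over Egr3 and 10 for Egr3 over Egr2. Jun was above Atf3 and Egr1 above Fosb in all 18 libraries. Egr2 and Egr3 were read with as few as 16 counts in a library, against at least 1602 counts for Fos, so counting error weighs more on them.

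**Figure D1:**
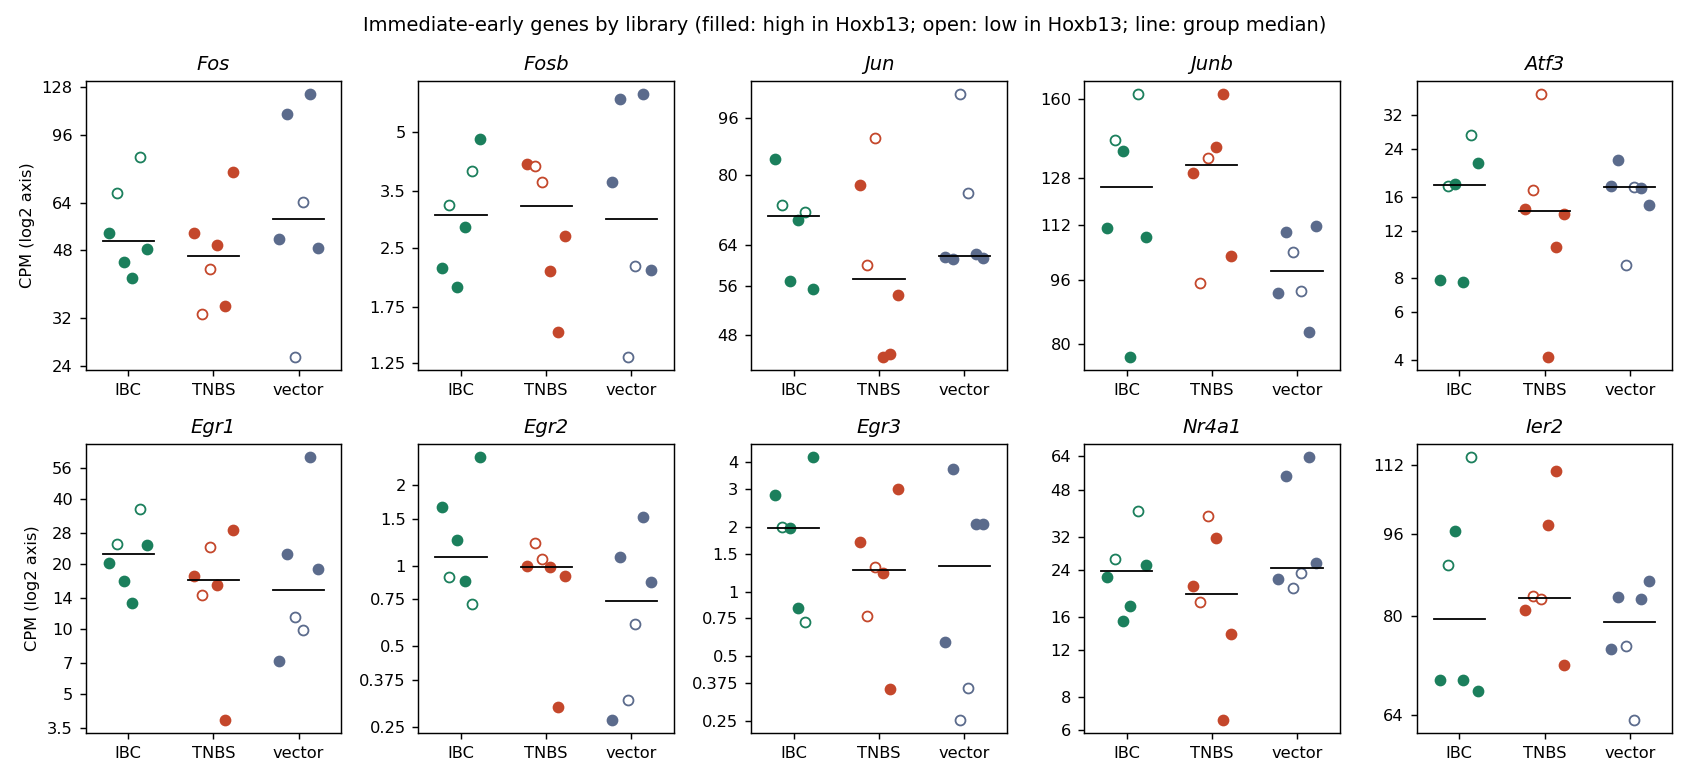
Level in CPM on a log2 axis of each of the 10 genes in IBC, TNBS and vector libraries, 1 point per library, filled for libraries high in Hoxb13 and open for those low in it, with a line at the group median. The 3 groups overlap in every panel, and vector libraries span 25.3 to 123 CPM for Fos but only 82.8 to 112 CPM for Junb.

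Fos, Fosb, Jun, Junb and Atf3 encode the leucine zipper proteins that pair up as AP-1 and related dimers. Fos is the classical immediate-early gene and its protein binds DNA only as a partner of a Jun protein. Its level lay between 40.8 and 84.3 CPM in IBC (median 50.9), between 32.7 and 77.1 CPM in TNBS (median 46.3) and between 25.3 and 123 CPM in vector libraries (median 57.9). Vector 2 and 5 were above every IBC and TNBS library and vector 3 was below every one of them. The log2 fold change was 0.23 ± 0.31 for IBC against TNBS (SE, here and below), -0.54 ± 0.31 for TNBS against vector and -0.31 ± 0.31 for IBC against vector, with adjusted p of 0.946, 0.362 and 0.856 in edgeR's quasi-likelihood test.

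Fosb, a close relative of Fos whose protein is longer lived in one of its forms, was expressed at a few CPM. It lay between 1.97 and 4.80 CPM in IBC, 1.50 and 4.12 CPM in TNBS, and 1.29 and 6.28 CPM in vector libraries, with medians of 3.03, 3.20 and 2.97 CPM. The 3 medians were close and the ranges overlapped. Its log2 fold changes were 0.06 ± 0.37, -0.25 ± 0.37 and -0.20 ± 0.37 in the same order of comparisons.

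Jun, the partner of Fos and the target of Jun kinases, was held within narrower limits. Its median was 70.3 CPM in IBC (55.5 to 84.3), 57.3 CPM in TNBS (44.7 to 90.1) and 61.8 CPM in vector libraries (61.1 to 104). Apart from vector 3 and 4, the vector libraries were nearly level. The log2 fold changes of 0.14 ± 0.19, -0.19 ± 0.19 and -0.05 ± 0.19 were of about the size of their errors or smaller.

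Junb, which can restrain Jun and is also used by cells of the immune system, came nearest to a difference. It lay between 77.1 and 162 CPM in IBC (median 125), between 94.9 and 162 CPM in TNBS (median 133) and between 82.8 and 112 CPM in vector libraries (median 98.4). In both IBC and TNBS, 5 of 6 libraries were above the vector median, and the groups overlapped. The log2 fold change was 0.36 ± 0.17 for TNBS against vector (adjusted p = 0.267 in edgeR, the unadjusted one being under 0.05) and 0.32 ± 0.17 for IBC against vector (adjusted p = 0.656). The unadjusted p of Junb for TNBS against vector was not under 0.05 in 7 of the 12 fits that left out 1 library of either group (TNBS 1, 3, 4 or 5, or vector 1, 4 or 5), nor with library weights or without TNBS 5 and vector 3. IBC against TNBS gave -0.05 ± 0.17. The 2 comparisons with vector share those libraries and are not independent of each other. Neutrophil markers moved with the same groups. The summed level of 8 markers was 4.92 to 131 CPM in IBC (median 47.0) and 9.12 to 276 CPM in TNBS (median 32.8). In vector libraries it was 3.55 to 6.30 CPM (median 4.81). All 8 were higher at an unadjusted p under 0.05 in edgeR against vector, where 10.4% (TNBS) and 4.90% (IBC) of all genes were. So were 4 of 8 (TNBS) and 8 of 8 (IBC) macrophage markers, and 1 of 6 and 4 of 6 fibroblast markers. Within IBC, libraries 5 and 2 had the most Junb (162 and 142 CPM) and the lowest neutrophil sums (14.9 and 4.92 CPM). Within TNBS, library 5 was highest in both (162 and 276 CPM). The part of these cells in the level of Junb was not tested, and in bulk tissue fewer cells of a type and less RNA per cell cannot be told apart.

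Atf3, a stress-induced factor of the same zipper family, had nearly equal means. It averaged 16.5 ± 7.51 CPM in IBC, 16.3 ± 11.5 CPM in TNBS and 16.3 ± 4.24 CPM in vector libraries (SD, n = 6 each). TNBS libraries ran from 4.11 CPM in TNBS 4 to 38.1 CPM in TNBS 3, so the range within that group was wider than in the other 2. For TNBS against vector the 95% interval of the log2 difference was -0.84 to 0.84, which leaves room for changes of either sign.

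Egr1, Egr2 and Egr3 encode zinc-finger factors that bind the GC-rich EGR site; Egr2 and Egr3 are also known from lymphocytes that have met antigen. Egr1 lay between 13.3 and 36.1 CPM in IBC (median 22.4), between 3.81 and 28.9 CPM in TNBS (median 16.9) and between 7.09 and 62.9 CPM in vector libraries (median 15.1). The highest and the lowest vector library differed 8.87-fold, the TNBS libraries 7.60-fold and the IBC libraries 2.72-fold. Vector 5 stood alone at the top, and vector 1, 3 and 4 lay below every IBC library. The log2 fold changes were 0.37 ± 0.48 for IBC against TNBS, -0.34 ± 0.48 for TNBS against vector and 0.04 ± 0.48 for IBC against vector.

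Egr2 had the largest positive fitted value of the comparisons with vector. It lay between 0.718 and 2.56 CPM in IBC (median 1.08), between 0.297 and 1.21 CPM in TNBS (median 0.994) and between 0.266 and 1.53 CPM in vector libraries (median 0.741). TNBS 5 was far below the other TNBS libraries, which lay close together. The log2 fold change was 0.54 ± 0.44 for IBC against TNBS, 0.23 ± 0.44 for TNBS against vector and 0.77 ± 0.44 for IBC against vector, the last with an adjusted p of 0.684 in edgeR.

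On log2 CPM Egr3 was the most variable of the 10 (SD within groups 1.20), whereas on log2(FPKM + 1) Egr1 was (SD 0.70, against 0.28 for Egr3). Its level was 0.718 to 4.24 CPM in IBC (median 1.99), 0.353 to 3.01 CPM in TNBS (median 1.26) and 0.253 to 3.74 CPM in vector libraries (median 1.32). Within the vector group the highest library was 14.8-fold above the lowest. With such a spread the interval of the log2 fold change reached from -0.72 to 1.903 for IBC against TNBS and from -1.43 to 1.20 for TNBS against vector.

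Nr4a1, an orphan nuclear receptor induced by calcium signals and antigen receptors, had the lowest fitted values in both comparisons with vector. It lay between 15.4 and 39.8 CPM in IBC (median 23.7), between 6.55 and 38.4 CPM in TNBS (median 19.5) and between 20.5 and 63.8 CPM in vector libraries (median 24.4). The medians were nearer to each other than the means, since vector 2 and 5 stood far above the other vector libraries. The log2 fold change was -0.69 ± 0.38 for TNBS against vector (adjusted p = 0.336), -0.51 ± 0.38 for IBC against vector (adjusted p = 0.780), while IBC against TNBS gave 0.18 ± 0.38.

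Ier2, a small nuclear protein whose role is less well known, was the steadiest on log2 CPM. It averaged 84.4 ± 19.0 CPM in IBC, 88.0 ± 13.9 CPM in TNBS and 77.5 ± 8.51 CPM in vector libraries (SD, n = 6 each). All 18 libraries lay between 63.4 and 114 CPM. Its log2 fold changes were -0.06 ± 0.15, 0.18 ± 0.15 and 0.12 ± 0.15 for IBC against TNBS, TNBS against vector and IBC against vector.

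**Figure D2:**
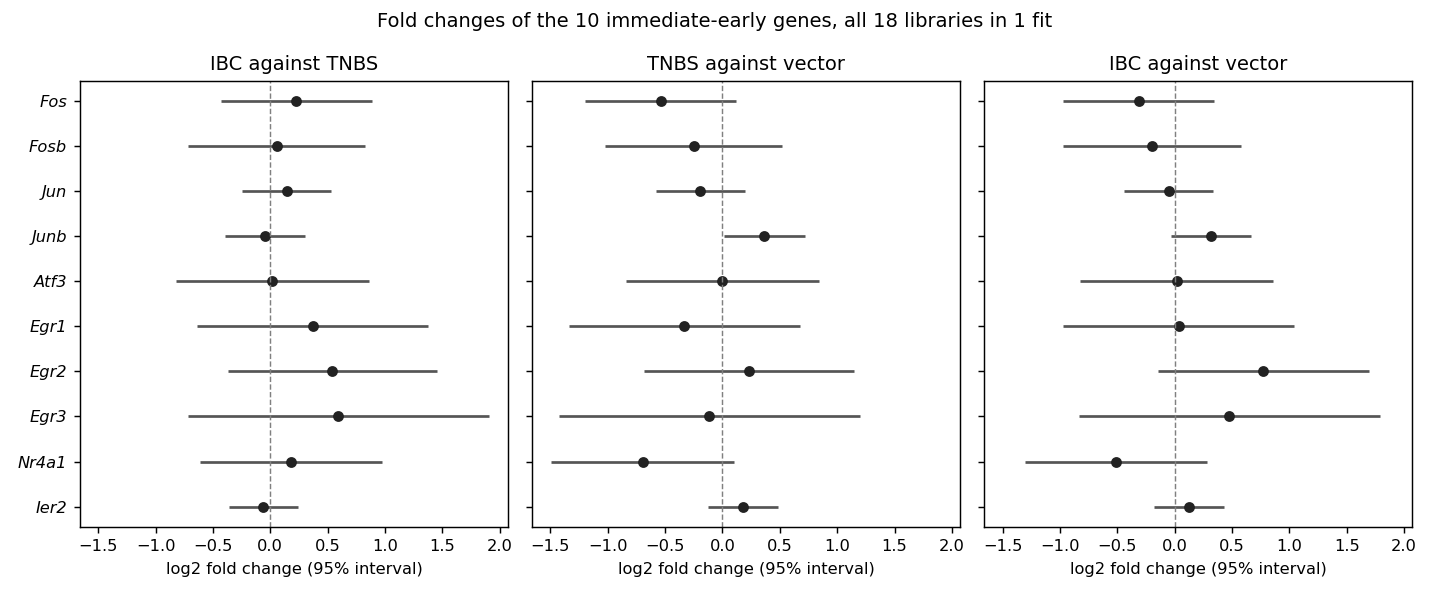
Log2 fold change with its 95% interval for each of the 10 genes in the comparisons of IBC with TNBS, TNBS with vector and IBC with vector, from 1 fit of all 18 libraries; the dashed line is no change. All intervals cross it except that of Junb for TNBS against vector, 0.01 to 0.72, whose adjusted p was 0.267.

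Counted together, 0 of 10 genes were past the threshold (an adjusted p of 0.05) for IBC against TNBS, 0 of 10 for TNBS against vector and 0 of 10 for IBC against vector. Over all 20855 genes the same edgeR test called 0%, 0.0192% and 0%, and the counts among the 10 are read against that background. At an unadjusted p under 0.05 the counts were 0, 1 (Junb, higher) and 0 of 10, where 3.93%, 17.8% and 8.53% of all genes passed. DESeq2, limma voom and limma on log2(FPKM + 1) without a filter called 0 of the 10 in each comparison as well; with a filter at 0.5 FPKM, which removes Egr2 and Egr3, limma called 0 of the other 8. No member had groups that did not overlap, against 0.149%, 1.17% and 1.08% of all genes. The fitted value was above 0 for 8, 3 and 6 of the 10, against 50.3%, 48.9% and 49.1% of all genes. The medians of the 10 were 0.16, -0.15 and 0.03 on the log2 scale, beside 0.0023, -0.013 and -0.0060 over all genes. The comparisons share libraries, so these counts are not independent.

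Lists of related genes of the pathway gave 0 calls too. Among 10 other AP-1 genes, 4 were higher and 0 lower at an unadjusted p under 0.05 for TNBS against vector in edgeR, where 10.4% of all genes were higher and 7.32% lower. Fosl1, which encodes Fra-1 and is itself an AP-1 target, had the largest value of the named ones, 0.606 ± 0.558 CPM in TNBS and 0.0439 ± 0.0303 CPM in vector libraries (SD, n = 6 each), with a log2 fold change of 3.73 ± 0.86 and an adjusted p of 0.0909. One vector library had no Fosl1 counts. Fosl2 and Jund, both abundant, had log2 fold changes of -0.36 ± 0.20 and -0.12 ± 0.19 in that comparison. For IBC against TNBS 0 of the 10 had an unadjusted p under 0.05, where 1.71% of all genes were higher and 2.22% lower. For IBC against vector 1 was higher, Fosl1 at 2.46 ± 0.84 (adjusted p = 0.385), where 4.90% of all genes were higher and 3.63% lower.

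Of 15 tested genes on a list of other immediate-early genes (16 in the list), 5 were higher and 0 lower for TNBS against vector at the same unadjusted level, beside the 10.4% and 7.32% of all genes. Ier3, an early response gene of inflamed epithelium and myeloid cells, averaged 28.7 ± 12.02 CPM in TNBS and 9.90 ± 4.09 CPM in vector libraries, a log2 fold change of 1.54 ± 0.37 (adjusted p = 0.0982), and 6 of 6 TNBS libraries were above the vector median. In IBC it averaged 23.9 ± 14.1 CPM, a log2 fold change of 1.27 ± 0.36 against vector (adjusted p = 0.296). Myc, the growth regulator, was at 43.9 ± 17.4 CPM in TNBS and 29.0 ± 7.28 CPM in vector libraries (log2 fold change 0.60 ± 0.23, adjusted p = 0.214), and at 31.3 ± 4.22 CPM in IBC (-0.49 ± 0.23 against TNBS, adjusted p = 0.925). Nr4a2 and Nr4a3, the relatives of Nr4a1, had values of -0.65 ± 0.42 and -0.20 ± 0.46 for TNBS against vector. For Klf6, Btg2 and Zfp36 they were 0.04 ± 0.20, -0.29 ± 0.17 and 0.08 ± 0.17.

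Among 16 feedback inhibitors, which shut the MAP kinase signal off again, 1 was higher at an unadjusted p under 0.05 for TNBS against vector. The phosphatase genes Dusp1 and Dusp6 had log2 fold changes of -0.10 ± 0.22 and 0.30 ± 0.20. Of 21 upstream kinases and factors, 2 were higher and 2 lower, and Srf, which encodes serum response factor, was at -0.14 ± 0.10. Of 7 ligands of the EGF receptor, 2 were higher, Areg at 1.01 ± 0.40 (adjusted p = 0.218) and Ereg at 1.33 ± 0.35 (adjusted p = 0.113), while Hbegf was at 0.67 ± 0.36 (adjusted p = 0.327). Of 13 delayed targets, the genes that early factors switch on later, 9 were higher and 0 lower for TNBS against vector, 5 higher for IBC against vector and 0 in either direction for IBC against TNBS, with medians of 0.84, 0.68 and -0.29. The shares of all genes were 10.4% higher and 7.32% lower for TNBS against vector, and 4.90% higher for IBC against vector. None of these had an adjusted p under 0.05 in edgeR, and none of the lists was tested as a set. Markers of other cells moved in the same comparisons at an unadjusted p under 0.05. For TNBS against vector 8 of 8 neutrophil and 4 of 8 macrophage markers were higher and 5 of 5 red blood cell markers lower, and for IBC against vector 8 of 8, 8 of 8 and 5 of 5 were. In the same order, 3 and 4 of 8 smooth muscle markers were lower, as were 2 and 1 of 6 neuron and glia markers. Of 6 fibroblast markers 1 and 4 were higher. For IBC against vector 3.63% of all genes were lower. The part of these cells in the values of the lists was not tested.

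Heat shock genes that mark handled tissue were listed because handling also reaches the immediate-early genes. Hspa1a averaged 13.3 ± 3.92 CPM in IBC, 98.3 ± 122 CPM in TNBS and 78.0 ± 55.6 CPM in vector libraries, and IBC libraries did not overlap vector libraries. The log2 fold change of IBC was -2.89 ± 0.66 against TNBS (adjusted p = 0.925) and -2.56 ± 0.65 against vector (adjusted p = 0.246). Hspa1b, a near-identical copy whose reads cannot be told apart with certainty, gave -2.82 ± 0.69 and -2.50 ± 0.68. Of the 8 heat shock genes, 8 had fitted values below 0 for IBC against TNBS and 6 were lower at an unadjusted p under 0.05, where 2.22% of all genes were. For IBC against vector 3 were lower, where 3.63% of all genes were, and Hspe1 and Hspb1 were above 0, at 0.39 ± 0.33 and 0.18 ± 0.52. None of the 8 passed adjustment in edgeR. Their part in the levels of the immediate-early genes was not tested.

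Between the 6 libraries low and the 12 high in Hoxb13, 0 of the 10 genes passed an adjusted p of 0.05 in edgeR, while 15.6% of all genes did. The nearest were Jun, at 78.8 CPM in the low and 61.2 CPM in the high libraries on average (log2 difference 0.37 ± 0.14, adjusted p = 0.0760), and Egr3, at 0.899 CPM in the low and 2.05 CPM in the high libraries (-1.28 ± 0.51, adjusted p = 0.10). These 2 had an unadjusted p under 0.05, and the share of all genes at that level was not counted. With only 10 genes, a count of 0 is not far from the 15.6% of all genes, so it is not read as a trait of these genes.

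Within those sets, however, the comparisons with vector had values on opposite sides of 0 for several genes. In a fit of each set alone the median log2 fold change of the 10 for TNBS against vector was -0.52 in the high set and 0.61 in the low set, and for IBC against vector it was -0.22 and 0.75. Fosb, for TNBS against vector, was at -0.80 ± 0.39 in the high set and 1.14 ± 0.55 in the low set, a difference of -1.93 ± 0.68 (adjusted p = 1.00 in edgeR). Atf3 in the same comparison was at -0.74 ± 0.41 and 1.06 ± 0.58 (difference -1.80 ± 0.71, adjusted p = 1.00). For IBC against vector Fos was at -0.83 ± 0.33 and 0.76 ± 0.47 (difference -1.59 ± 0.57, adjusted p = 0.317). Before adjustment the difference between sets was under 0.05 for 1 of the 10 genes in IBC against TNBS (Junb), 2 in TNBS against vector (Fosb and Atf3) and 5 in IBC against vector (Fos, Fosb, Egr1, Nr4a1 and Ier2), where 4.48%, 4.56% and 12.0% of all genes were. No difference between sets passed adjustment among the 10 genes, and of all 20855 genes 0.00959%, 0% and 0.00480% did for IBC against TNBS, TNBS against vector and IBC against vector. The low set holds 2 libraries a group, one of them vector 3, which was the lowest vector library for 5 of the 10 genes.

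**Figure D3:**
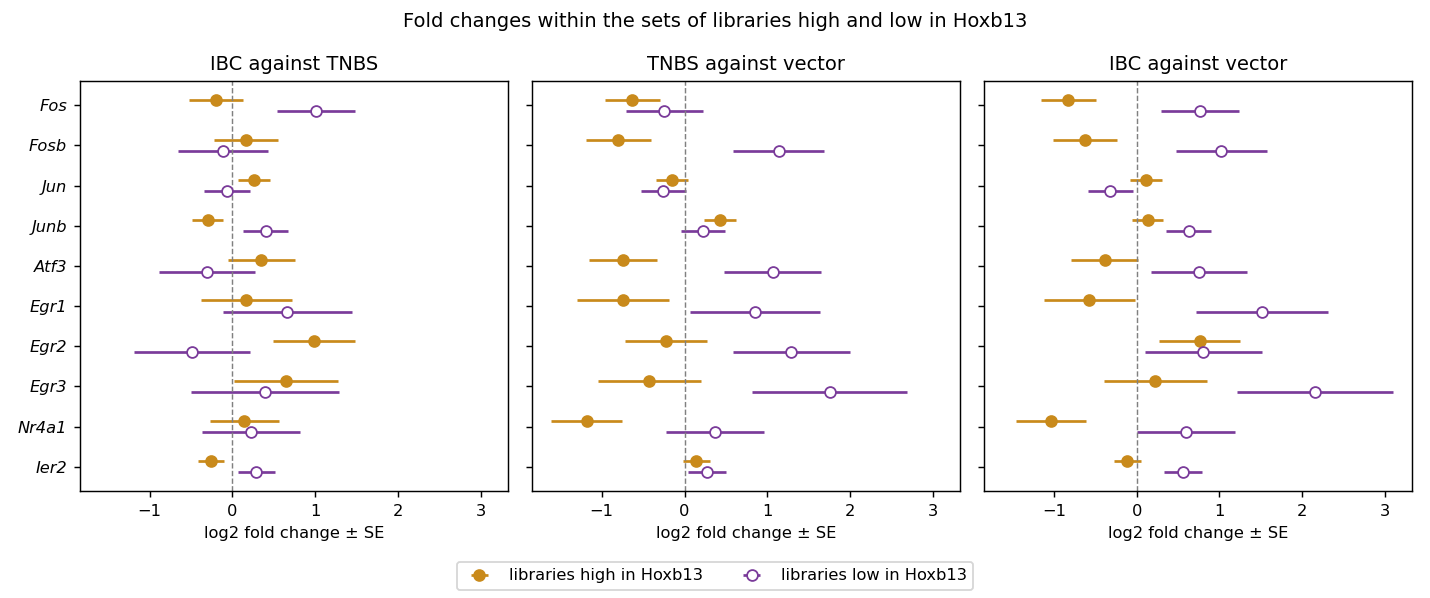
Log2 fold change ± SE of each of the 10 genes within the 12 libraries high in Hoxb13 (filled) and within the 6 low in it (open), for the 3 comparisons. For TNBS against vector, Fosb, Atf3, Egr1, Egr2, Egr3 and Nr4a1 lie below 0 in the high set and above 0 in the low set, and no difference between sets passed adjustment.

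Spread between libraries of the same group differed among the genes and with the scale. The within-group SD of log2 CPM was 1.20 for Egr3, 0.92 for Egr1, 0.78 for Egr2, 0.78 for Atf3, 0.72 for Nr4a1, 0.68 for Fosb and 0.60 for Fos. It was 0.32 for Jun, 0.29 for Junb and 0.24 for Ier2. The median over all 20855 genes was 0.49, so on log2 CPM 7 of the 10 varied more than the typical gene and 3 less. As percentiles among all genes these ran from 12.3 for Ier2 to 89.9 for Egr3, with a median of 70.8. On log2(FPKM + 1), where low values move less, the percentiles of Fosb and Egr2 were 41.3 and 26.8, those of Junb and Ier2 47.4 and 30.5, those of Jun and Egr3 66.3 and 56.3, and those of Fos, Egr1, Nr4a1 and Atf3 were between 93.5 and 95.4.

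Which genes varied together was measured over the 18 libraries on log2 CPM after removing the group means, for all 45 pairs. By a permutation test of Pearson's r with 100000 resamples, 12 pairs had an adjusted p under 0.05, 11 of them among the 15 pairs of Egr1, Nr4a1, Fos, Fosb, Egr2 and Egr3. The share of such pairs among all genes was not measured. By both Pearson's r and Spearman's rho, 9 pairs passed. Egr1 and Nr4a1 were the closest pair, with r = 0.80 and rho = 0.75 (adjusted permutation p = 0.00225 and 0.00567), and r = 0.63 without the 2 libraries farthest from the median of Egr1. Within the libraries high and low in Hoxb13 their r was 0.78 and 0.96. Egr2 and Egr3 followed with r = 0.79 and rho = 0.77 (adjusted permutation p = 0.00225 and 0.00567), and r = 0.77 without 2 libraries. Fos and Fosb had r = 0.65 and rho = 0.55 (adjusted permutation p = 0.0188 and 0.0672), and r = 0.40 without 2 libraries, so this pair rests in part on them.

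Junb and Ier2 were correlated with each other, with r = 0.75 and rho = 0.80 (adjusted permutation p = 0.00465 and 0.00567), and r = 0.82 without 2 libraries. Their r was 0.78 in the high set and 0.72 in the low set. Over all 18 libraries no other pair with either of them passed: r of Junb with Fos was 0.07, with Egr1 -0.10 and with Fosb -0.24. The sets differed here, r of Ier2 with Egr1 being 0.71 in the 6 low libraries and -0.22 in the 12 high ones, and that of Junb with Egr1 0.52 and -0.30. Against the mean of the other 9 genes, r was 0.83 for Egr1, 0.77 for Nr4a1, 0.74 for Fosb, 0.69 for Fos, 0.69 for Egr2, 0.64 for Egr3 and 0.41 for Atf3 (0.92 in the low and 0.32 in the high set), but -0.02 for Ier2, -0.05 for Junb and -0.05 for Jun. The grouping of genes was made after the correlations were seen, while the split of libraries by Hoxb13 came from earlier results of these data. Libraries also share depth and tissue makeup across all genes.

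**Figure D4:**
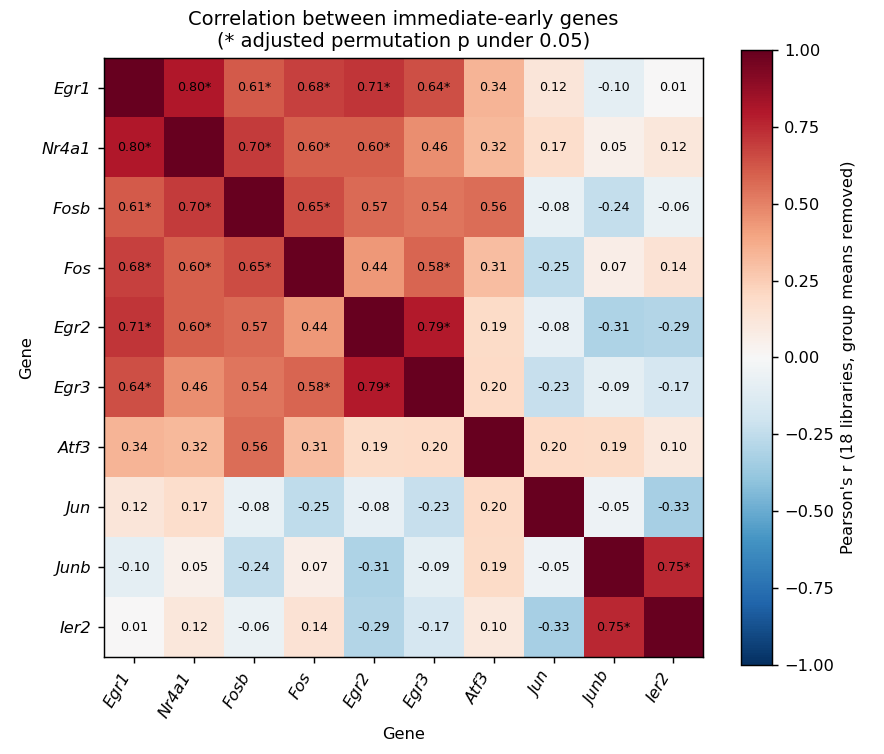
Pearson's r between each pair of the 10 genes over 18 libraries on log2 CPM with group means removed; an asterisk marks an adjusted permutation p under 0.05. Egr1, Nr4a1, Fosb, Fos, Egr2 and Egr3 form a block with r of 0.44 to 0.80, Junb and Ier2 a pair at 0.75, and Jun stays between -0.33 and 0.20.

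Library by library, the mean of the 10 centred log2 levels was lowest in TNBS 5, at -0.90, and in vector 3, at -0.70, and highest in vector 5, at 0.67, vector 2, at 0.59, and IBC 6, at 0.43. TNBS 5 was the lowest of its group for 5 of the 10 genes and the highest for 2, Junb and Ier2. Vector 3 was likewise the lowest for 5 and the highest for 1, Jun. IBC 5 was the highest of its group for 6 genes, yet the lowest for Egr2 and Egr3. The same libraries stood apart in other ways: TNBS 5 had the highest summed neutrophil markers of all libraries, 276 CPM, and vector 3 the highest mitochondrial share, and the part of either in these levels was not tested. Without TNBS 5 and vector 3 still 0 of the 10 genes passed in any comparison.

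**Figure D5:**
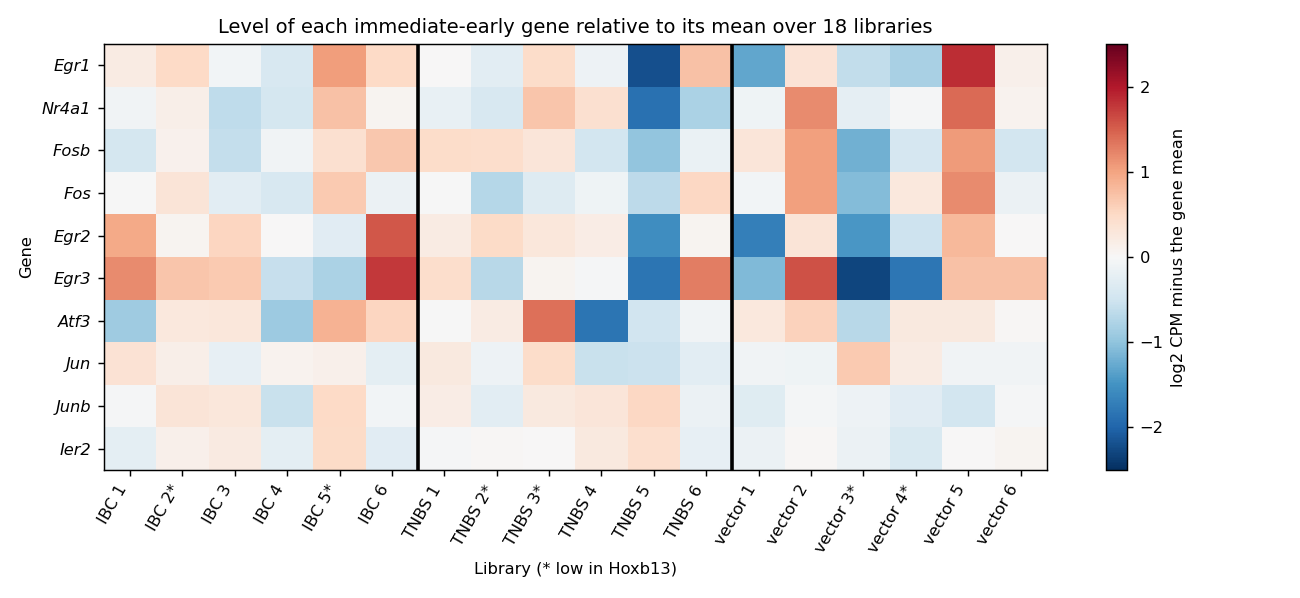
Log2 CPM of each of the 10 genes in each library minus the gene's mean over 18 libraries, with IBC, TNBS and vector libraries from left to right and an asterisk for libraries low in Hoxb13. Most of the upper 6 rows are blue in TNBS 5 and vector 3 and red in vector 5, with Nr4a1 nearly white in vector 3. The rows of Jun, Junb and Ier2 are mostly pale.

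Genes outside the 10 were ranked by Pearson's r with the mean of the 10, over 18 libraries. The ranking took 15798 genes with a mean of at least 1 CPM. That mean is of unscaled log2 CPM with group means removed, so genes of wide spread weigh most in it. The SD was 1.20 for Egr3, against 0.24 for Ier2. Jun, Junb and Ier2 had r of only -0.05, -0.05 and -0.02 with the rest of the 10, so the ranking says little of them. First was Zfp143, a zinc-finger factor found at many promoters, with r = 0.89, followed by Dnase1l3 at 0.85, Cd74 at 0.85, Ccdc88b at 0.82, H2-Eb1 at 0.82, Nup210 at 0.82, H2-Ab1 at 0.81, Grap2 at 0.79, 2310057M21Rik at 0.78 and Odf2l at 0.78. Cd74, H2-Eb1 and H2-Ab1 belong to antigen presentation by MHC class II. Of all ranked genes 5.17% had r above 0.5. Of the pathway lists, 4 of 15 other immediate-early genes were above 0.5 (Myc at 0.77, Csrnp1 at 0.62, Klf6 at 0.58 and Klf4 at 0.54), and 3 of 16 feedback inhibitors (Trib1 at 0.72, Dusp6 at 0.63 and Spry1 at 0.63). So were 2 of the 6 ranked EGF receptor ligands (Areg at 0.58 and Hbegf at 0.51) and 2 of 13 delayed targets (Gdf15 at 0.55 and Phlda1 at 0.52). No other AP-1 gene and no heat shock, neutrophil, macrophage or smooth muscle gene on the lists was.

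Because antigen presentation genes led this ranking, MHC class II and lymphocyte lists were added after it was seen, as a description. All 7 MHC class II genes had r above 0.5, with a median of 0.75 (0.79 in the high and 0.81 in the low set). The 7 include Cd74, H2-Eb1 and H2-Ab1, which prompted the list, so their values were known in advance. The others were H2-Aa at 0.75, H2-DMb1 at 0.74, H2-DMa at 0.66 and Ciita at 0.56. Of 11 lymphocyte markers 6 had r above 0.5, and the median was 0.51. Among the 6 were the B cell genes Cr2 at 0.61 and Cd79a at 0.57, and the T cell gene Cd4 at 0.64, while Cd8a was at 0.10. The summed MHC class II level was lowest of its group in TNBS 5, at 183 CPM, and in vector 3, at 252 CPM, and highest in vector 2, at 974 CPM. Those are libraries at the ends of the immediate-early range too, but others did not match. TNBS 3, with the highest mean of the 10 in its group (0.35), ranked 5 of 6 for MHC class II, at 425 CPM. IBC 3 had the highest IBC sum, 764 CPM, at a mean of 0.018. Summed lymphocyte markers were lowest in IBC 5, TNBS 2 and vector 4, and highest in IBC 3, TNBS 4 and vector 2. The part of lymphoid tissue in the levels of the 10 genes was not tested.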

How the data were processed

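The authors deposited, per the file headers, a count and an FPKM value for each gene and library. Per the labels' protocols, polyadenylated RNA was captured with oligo(dT), and cutadapt 1.9 is named in the submitters' processing notes. What was used to align and count, and with which annotation, is not given in the sources used here. Positions in the table differ from GRCm38, so promoters were matched by symbol and the table's coordinates are not printed. Strand use in counting is not given either.

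Counts were filtered with filterByExpr, scaled by TMM and tested with edgeR 4.0.16 (quasi-likelihood, two-sided) in 1 fit of all 18 libraries, with p-values adjusted by Benjamini-Hochberg over 20855 genes at 0.05. Levels are CPM of scaled totals, and spread and correlations use log2 CPM with a prior count of 2. Totals set the counting error, which adds to the spread between libraries. DESeq2 1.42.0 and limma 3.58.1 were alternatives, in R 4.3.3, with limma on log2 of the deposited FPKM plus 1 or 0.1. The tests were tried on simulated data. Low counts favour 4 (19961 gene and library pairs, against 9977 with 3 and 6358 with 5), so a repeat divided counts by 4. No libraries were duplicates. Hoxb13 above 10 CPM defined the high set.

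Members and lists were chosen with earlier results of these data known. Named genes are the 10 members, 17 fixed pathway genes, called list genes (1, the smooth muscle gene Synm, in TNBS against vector) and the 10 closest in pattern; Csrnp1, Klf4, Trib1, Spry1, Ereg, Gdf15, Phlda1, Hspe1, Hspb1 and the MHC class II and lymphocyte genes were named after their values were seen.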

Additional observations from a re-analysis of the deposited data

Results flagged for a closer look

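Of 30 groups of 6 values (10 genes in 3 groups), 3 held a library whose gap to its nearest neighbour was above the 95% critical value of Dixon's test, 0.625 of the range for 6 samples. Chance alone flags about 1 in 20 such groups where values follow a normal distribution. The test was run on CPM, where high values stand out more than on log2 CPM, and it was not repeated on log2 CPM. Egr1 was at 62.9 CPM in vector 5, and the next vector library was at 22.2 CPM. Jun was at 104 CPM in vector 3, and the next vector library was at 75.4 CPM. Egr2 was at 0.297 CPM in TNBS 5, and the next TNBS library was at 0.916 CPM.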

How the results depend on the processing

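Under each of 26 other settings, none of the genes tested among the 10 passed an adjusted p of 0.05 in any comparison (Egr2 and Egr3 fell below the FPKM filter in the 2 settings that use it): the smallest adjusted p was 0.460 for IBC against TNBS, 0.145 for TNBS against vector and 0.144 for IBC against vector. Direction was less stable. Leaving out any 1 library, 5, 7 and 6 of the 10 kept theirs in the same order of comparisons, and over all settings 2 (Egr1 and Egr3), 3 (Fos, Junb and Ier2) and 3 (Egr2, Egr3 and Junb) did. The 12 values that turned when 1 library was left out ranged, for IBC against TNBS, from -0.18 to 0.47 (Atf3), -0.10 to 0.16 (Fosb), -0.16 to 0.023 (Ier2), -0.14 to 0.056 (Junb) and -0.013 to 0.43 (Nr4a1). For TNBS against vector they ranged from -0.45 to 0.21 (Atf3), -0.54 to 0.33 (Egr1) and -0.50 to 0.39 (Egr3), and for IBC against vector from -0.17 to 0.17 (Atf3), -0.15 to 0.70 (Egr1), -0.35 to 0.031 (Fosb) and -0.12 to 0.10 (Jun). The cause of none of these turns was tested.

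Within the libraries low in Hoxb13 the median of the 10 was 0.61 for TNBS against vector and 0.75 for IBC against vector. At an unadjusted p under 0.05 in edgeR, 3 and 5 of the 10 were higher there, beside 1333 and 1418 of 21182 genes. There, log2 fold changes turned for IBC against TNBS in Jun (-0.0677), Fosb (-0.12), Atf3 (-0.31), Egr2 (-0.49), Ier2 (0.29) and Junb (0.40), for TNBS against vector in Nr4a1 (0.36), Egr1 (0.85), Atf3 (1.06), Fosb (1.13) and Egr3 (1.754), and for IBC against vector in Nr4a1 (0.59), Fos (0.75) and Fosb (1.01). Within the high libraries they turned for IBC against TNBS in Fos (-0.17), for TNBS against vector in Egr2 (-0.22), and for IBC against vector in Ier2 (-0.0881), Atf3 (-0.36), Egr1 (-0.53) and Jun (0.14). At an unadjusted p under 0.05 in edgeR, 2 of the 10 were lower in the high libraries for IBC against vector, beside 612 of 21030 genes. For TNBS against vector 1 was higher and 1 lower in them, beside 1479 and 1081 genes. With the set as a covariate, Atf3 turned to -0.081 for IBC against vector and Egr3 to 0.17 for TNBS against vector. Without TNBS 5 and vector 3, a setting chosen after seeing the data, values turned for IBC against TNBS in Fosb (-0.067), Atf3 (-0.067), Ier2 (0.026) and Junb (0.043), for TNBS against vector in Jun (0.022; -0.33 to -0.042 with 1 library left out), and for IBC against vector in Egr1 (-0.082), Atf3 (-0.095) and Jun (0.10).

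On log2(FPKM + 1), with or without a filter, Ier2 and Junb turned to 0.032 and 0.042 for IBC against TNBS and Jun to 0.045 for IBC against vector. With a pseudocount of 0.1 they were at 0.032, 0.042 and 0.047, and Fosb turned to 0.00666 for IBC against vector. The median within-group SD of the 10 was 0.30 on log2(FPKM + 1), beside 0.70 on log2 CPM. Limma voom with library weights gave, for IBC against TNBS, -0.14 (Nr4a1) and -0.16 (Fosb), and for IBC against vector -0.016 (Ier2), -0.028 (Egr1), -0.42 (Atf3) and 0.035 (Jun). Atf3 for TNBS against vector was at 0.016 in DESeq2 and 0.011 with DESeq2 size factors or no filter. Same-numbered libraries did not pair (7 of 18 correlations above 0.1, median -0.021); with the replicate block the unadjusted p of Junb for TNBS against vector was no longer under 0.05, Atf3 turned to -0.15 for IBC against vector, and Egr1 and Egr3 to 0.061 and 0.034 for TNBS against vector.

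Calls over all genes moved far more. For TNBS against vector, 4 genes became 549 in DESeq2, 142 with the Hoxb13 set as a covariate, 9 with library weights, 1 with the replicate block, 3 on log2(FPKM + 1) without a filter, and 0 in edgeR without a filter, on either FPKM pseudocount with its filter, in the 2 groups alone, within either set, with counts divided by 4 or without TNBS 5 and vector 3. Leaving out 1 library gave 0 to 323, the 323 being without TNBS 6. For IBC against vector, 0 genes became 196 in DESeq2, 8 in the 2 groups alone, 4 with the covariate, 30 in the high set, 610 with library weights, and 0 to 5 with 1 library left out. For IBC against TNBS they became 5 in DESeq2 and 0 to 1 with 1 library left out. Among the 10, Egr2, Egr3 and Fosb had the fewest counts, so counting error weighs most on them. With counts divided by 4, the medians of the 10 were 0.16, -0.16 and 0.02 for IBC against TNBS, TNBS against vector and IBC against vector. In the main fit they were 0.16, -0.15 and 0.03.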
